A study of Mus musculus with 8 samples.

Results

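The genes described here belong to nitric oxide, arginine and itaconate metabolism in myeloid cells, with a cofactor step and a polyamine step beside it. The members were the 8 genes Nos2, Slc7a2, Ass1, Gch1, Arg1, Arg2, Odc1 and Acod1, found by matching the RefSeq accession of each array probe to a mouse symbol. They held 12 of the 55681 probes, and all 8 were among the 19120 genes kept for testing. Every member probe was well above background on all 8 arrays, so that no member level below is a bound. Some marker levels below are not above background on every array. Where a gene had several probes (Ass1 with 2, Gch1 with 2 and Odc1 with 3), the brightest stood for it.

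The samples were primary microglia, the resident macrophages of the brain, from C57BL/6 mice. They were treated for 3 h with Fc-fused Ecrg4(71-132), with Fc-fused Ecrg4(133-148), with recombinant Fc or with PBS, and each of the first 3 proteins was given at 20 µg/ml. Ecrg4 is a secreted precursor protein, the numbers give the residues of each fragment, and Fc is the constant part of an antibody that carries them. Each treatment had 1 array in set 1 and 1 in set 2, which are the names used in the labels. Neither the age of the mice nor the number of cultures or animals behind the sets was stated, so p-values measure only the spread between these arrays, which may be technical.

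Inducible nitric oxide synthase, the product of Nos2, turns arginine into nitric oxide and citrulline and needs tetrahydrobiopterin as a cofactor. Slc7a2 encodes a cationic amino acid transporter that brings arginine into the cell, Ass1 encodes argininosuccinate synthase, which starts the return of citrulline to arginine, and Gch1 encodes GTP cyclohydrolase, the first enzyme of tetrahydrobiopterin synthesis. Arg1 and Arg2 encode the cytosolic and the mitochondrial arginase, which compete for arginine and release ornithine, and Odc1 encodes ornithine decarboxylase, the first enzyme of polyamine synthesis. Acod1 (older symbol Irg1) encodes the mitochondrial enzyme that makes itaconate from cis-aconitate, and it is strongly induced in macrophages that meet bacterial products.

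Arrays resembled their set more than their treatment. Pairs of set 1 arrays correlated across genes at 0.994 to 0.997 and pairs of set 2 arrays at 0.975 to 0.990, whereas the duplicates of a treatment correlated at 0.953 to 0.962. An array had 24243 to 29474 probes above its background, and its upper-quartile signal was 494.6 to 809.3 intensity units. The microglial markers Csf1r (7.90 to 8.17) and Trem2 (7.04 to 7.56) were bright on every array, on a log2 scale with the array's 75th percentile at 0, which is used throughout. Cx3cr1, a microglial chemokine receptor gene, lay at 4.58 to 4.71 in set 1. In set 2 it was far lower and differed by treatment, at -0.74 with Ecrg4(71-132), -1.45 with Ecrg4(133-148), -2.36 with Fc and -3.25 with PBS. Tmem119, another gene used to define microglia, was well above background on 1 of 4 arrays of set 2 and on 4 of 4 of set 1. Itgax, a gene of dendritic cells and activated macrophages, stood at 5.32 to 5.48 in set 2 and 0.85 to 1.06 in set 1. Other genes of monocytes and macrophages went both ways. Mrc1 was higher in set 2, whereas Ccr2, Ms4a7 and F13a1 (-3.29 to -3.02 in set 2, 1.78 to 1.93 in set 1) were lower. The oligodendrocyte lineage sum (4 of 6 genes measured) was 6.48 to 6.76 in set 2 and 5.11 to 5.22 in set 1, although its gene Pdgfra was lower in set 2. Fibroblast genes (3 of 4 measured) summed to between -1.57 and -0.97 in set 2 and between 4.44 and 5.55 in set 1. In set 2 Col1a2 was well above background on 4 arrays, Dcn on 2 and Col1a1 on 1. Gfap, which marks astrocytes, stood at -6.23 to -3.66 in set 2 and 1.11 to 2.43 in set 1, and Slc1a3, an astrocyte glutamate transporter gene, at -6.41 to -3.89 in set 2 and -0.36 to 0.77 in set 1. Each was well above background on 1 of 4 arrays of set 2 and on 4 of 4 of set 1. The astrocyte genes Aqp4, Slc1a2 and S100b were also lower in set 2. Aldh1l1, another astrocyte gene, went the other way, at 3.59 to 3.83 in set 2 and 2.33 to 2.97 in set 1. The astrocyte sum (6 of 7 genes measured) was 3.64 to 3.85 in set 2 and 3.35 to 4.23 in set 1. Each marker sum is the log2 of the added linear signals, so its brightest genes weigh most. In set 2 the astrocyte sum was nearly Aldh1l1 alone (3.80 for the gene and 3.81 for the sum with Fc). That sum therefore did not separate the sets, although the other measured astrocyte genes were lower in set 2. Within set 1 Gfap was at 1.59 with Ecrg4(71-132), 1.11 with Ecrg4(133-148), 1.14 with Fc and 2.43 with PBS. Within set 1 the fibroblast sum was 4.92 with Ecrg4(71-132), 4.44 with Ecrg4(133-148), 4.85 with Fc and 5.55 with PBS. The label of microglia therefore held for Csf1r and Trem2 in both sets, while Cx3cr1 and Tmem119 were low in set 2. Values are given within each set for this reason, and in RNA of whole cultures fewer cells of a type and less RNA per cell cannot be told apart.

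The 8 genes fell into 3 patterns. Nos2, Slc7a2, Gch1, Ass1 and Odc1 were higher with Ecrg4(71-132) than with Fc by similar or moderately different amounts in both sets. Acod1 and Arg2 were also higher, by far more in set 2. Arg1, a bright gene, differed by at most 0.20 between any treatments within set 1 and by at most 0.08 within set 2. Ecrg4(71-132) gave the highest level of the 4 treatments in both sets for 7 of the 8 members, the exception being Arg1, where Ecrg4(133-148) was highest in set 1. Of all genes tested, 13.5% had Ecrg4(71-132) highest in both sets. The full order Ecrg4(71-132), Ecrg4(133-148), Fc, PBS from high to low held in both sets for 2 members, Slc7a2 and Gch1, and for 4.61% of all genes. The members were chosen with earlier results of these data known. Shares of all genes, here and below, therefore serve as a description and not as a test of the members. No gene on the array passed the test over all genes in any of the 6 comparisons (limma, Benjamini-Hochberg adjusted p under 0.05), also with the set as a block, so none of the differences below is called. Calls appeared only in block fits that left out an array, which are given with the comparisons.

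**Figure D1:**
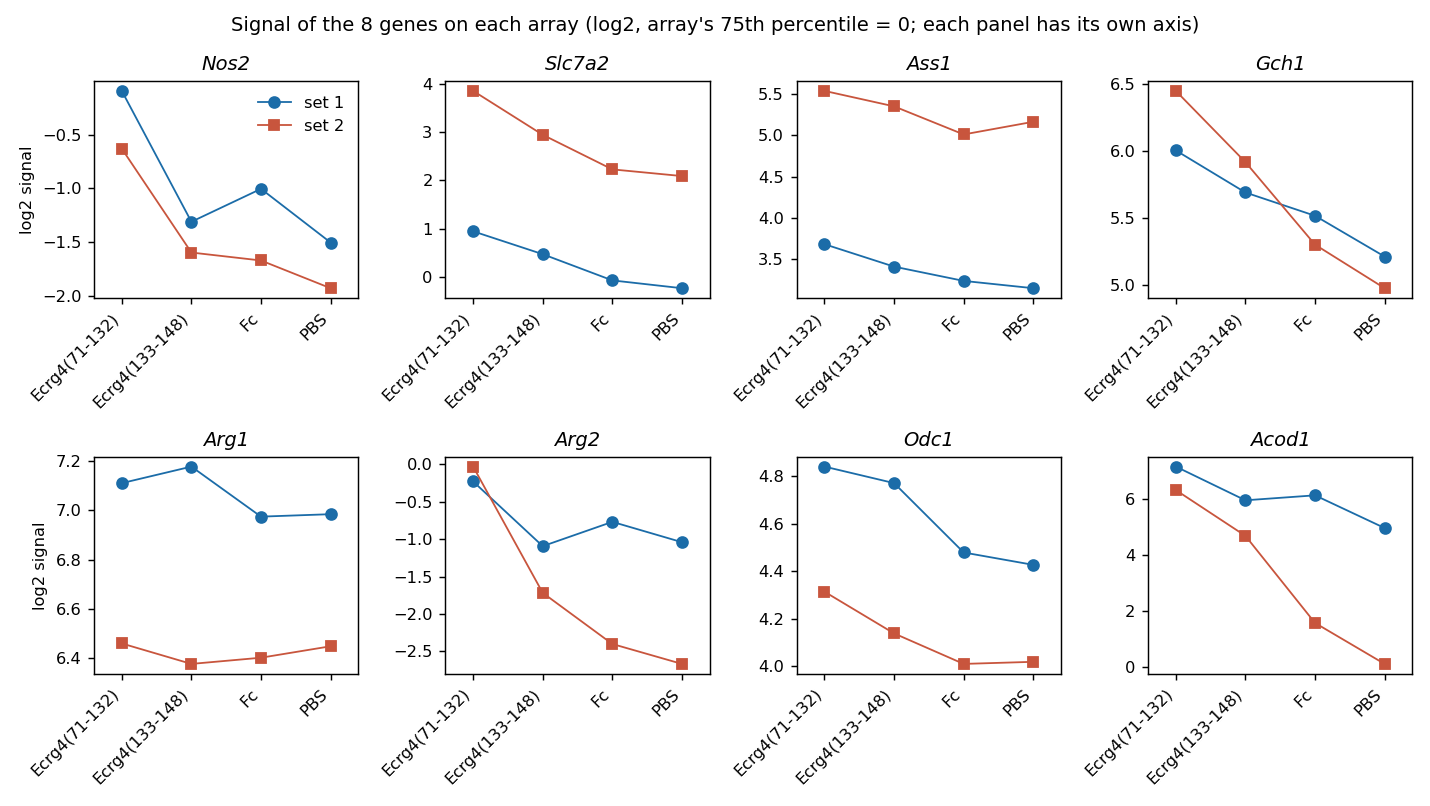
Log2 signal of each gene (vertical axis, array's 75th percentile at 0, own scale in each panel) under the 4 treatments, with 1 point per array and lines joining the arrays of a set (blue circles set 1, red squares set 2). Acod1 stood at 7.14 with Ecrg4(71-132) and 4.96 with PBS in set 1, and at 6.31 and 0.13 in set 2, whereas the Slc7a2 and Ass1 lines of the sets ran at different heights.

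Among the genes of nitric oxide synthesis, Nos2 stood at -0.09 in set 1 and -0.63 in set 2 with Ecrg4(71-132). It stood at -1.31 and -1.60 with Ecrg4(133-148), at -1.005 and -1.67 with Fc, and at -1.50 and -1.93 with PBS. The Ecrg4(71-132) arrays lay above the other 6 without overlap, and the other 3 treatments overlapped one another. The Nos2 probe was printed in 2 spots per array, whose SD was 0.24 on the log2 scale on the first Ecrg4(71-132) array and at most 0.17 on any other. Ecrg4(71-132) was 0.98 above Fc (SE 0.32, n = 2 arrays each, limma adjusted p = 1), by 0.91 in set 1 and 1.04 in set 2. These are 1.88-fold and 2.06-fold.

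Slc7a2, the arginine transporter gene, stood at 0.95 in set 1 and 3.85 in set 2 with Ecrg4(71-132). The levels were 0.47 and 2.94 with Ecrg4(133-148), -0.07 and 2.23 with Fc, and -0.23 and 2.09 with PBS. All 4 arrays of set 2 lay above all 4 of set 1, and the treatments had the same order in both sets. Ecrg4(71-132) was 1.32 above Fc (SE 1.53, limma adjusted p = 1), by 1.02 in set 1 and 1.62 in set 2. The SE is large beside the difference because it holds the gap between the sets. Its 95% interval in the block fit was 0.87 to 1.77 (limma adjusted p = 0.177).

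Gch1, which controls the supply of tetrahydrobiopterin, stood at 6.00 in set 1 and 6.45 in set 2 with Ecrg4(71-132). It stood at 5.69 and 5.92 with Ecrg4(133-148), at 5.52 and 5.30 with Fc, and at 5.21 and 4.97 with PBS. On this probe, the brighter of its pair, no treatment overlapped another, and the steps between neighbours in this order were 0.42, 0.40 and 0.32. The 95% intervals of the steps were -0.11 to 0.96, -0.14 to 0.93 and -0.22 to 0.85, so neighbours did not differ beyond their spread. Ecrg4(71-132) was 0.82 above Fc (SE 0.21, limma adjusted p = 1), by 0.49 in set 1 and 1.15 in set 2. The dimmer Gch1 probe gave 0.38 and 0.72. On that probe Ecrg4(133-148) (0.59 and 0.37) overlapped Fc (0.56 and -0.01), and Fc overlapped PBS (0.24 and -0.59).

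Ass1 stood at 3.68 in set 1 and 5.54 in set 2 with Ecrg4(71-132), at 3.41 and 5.35 with Ecrg4(133-148), at 3.23 and 5.01 with Fc, and at 3.15 and 5.16 with PBS. The sets did not overlap, and the treatments did. Ecrg4(71-132) was 0.49 above Fc (SE 1.16, limma adjusted p = 1), by 0.45 in set 1 and 0.53 in set 2, and the second Ass1 probe gave 0.55 and 0.48. Its 95% interval in the block fit was 0.27 to 0.70.

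Of the arginase genes, Arg1 was the steadier. It stood at 7.11 in set 1 and 6.46 in set 2 with Ecrg4(71-132), at 7.18 and 6.38 with Ecrg4(133-148), at 6.97 and 6.40 with Fc, and at 6.98 and 6.45 with PBS. Treatments overlapped fully. Ecrg4(71-132) minus Fc was 0.10 (SE 0.41, limma adjusted p = 1), with a 95% interval of -0.94 to 1.13, or of -0.13 to 0.33 in the block fit. The sign of this difference turned under quantile scaling, and no direction is drawn for Arg1.

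Arg2 stood at -0.23 in set 1 and -0.03 in set 2 with Ecrg4(71-132). It stood at -1.09 and -1.72 with Ecrg4(133-148), at -0.77 and -2.40 with Fc, and at -1.04 and -2.67 with PBS. The Ecrg4(71-132) arrays lay above the other 6, whose treatments overlapped. Ecrg4(71-132) was 1.46 above Fc (SE 0.74, limma adjusted p = 1), by 0.54 in set 1 and 2.37 in set 2, or 1.45-fold and 5.18-fold. The smaller difference in set 1 came with a higher Fc level there, since the Ecrg4(71-132) levels of the sets were 0.20 apart.

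Odc1, which uses the ornithine that arginases release, stood at 4.84 in set 1 and 4.31 in set 2 with Ecrg4(71-132), at 4.77 and 4.14 with Ecrg4(133-148), at 4.48 and 4.01 with Fc, and at 4.43 and 4.02 with PBS. Treatments overlapped across the sets. Ecrg4(71-132) was 0.33 above Fc (SE 0.33, limma adjusted p = 1), by 0.36 in set 1 and 0.30 in set 2. The other Odc1 probes gave 0.61 and 0.36, and 0.28 and 0.33.

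Acod1, the itaconate gene, had the widest range of the 8. It stood at 7.14 in set 1 and 6.31 in set 2 with Ecrg4(71-132), at 5.94 and 4.68 with Ecrg4(133-148), at 6.12 and 1.58 with Fc, and at 4.96 and 0.13 with PBS. The Ecrg4(71-132) arrays lay above the other 6, and in set 1 the Fc array lay above the Ecrg4(133-148) array. Its probe was printed in 10 spots per array, with an SD between spots of 0.02 to 0.06 on the log2 scale, so the array differences are far larger than the spot error. Ecrg4(71-132) was 2.87 above Fc (SE 2.08, limma adjusted p = 1), by 1.02 in set 1 and 4.72 in set 2. As folds these were 2.03 and 26.4. The absolute mean difference was as large as or larger than that of 99.8% of genes. With 1 array left out it ran from 0.60 to 5.14, or from 1.52 to 4.23 with the block. Against PBS the folds were 4.54 in set 1 and 72.5 in set 2.

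**Figure D2:**
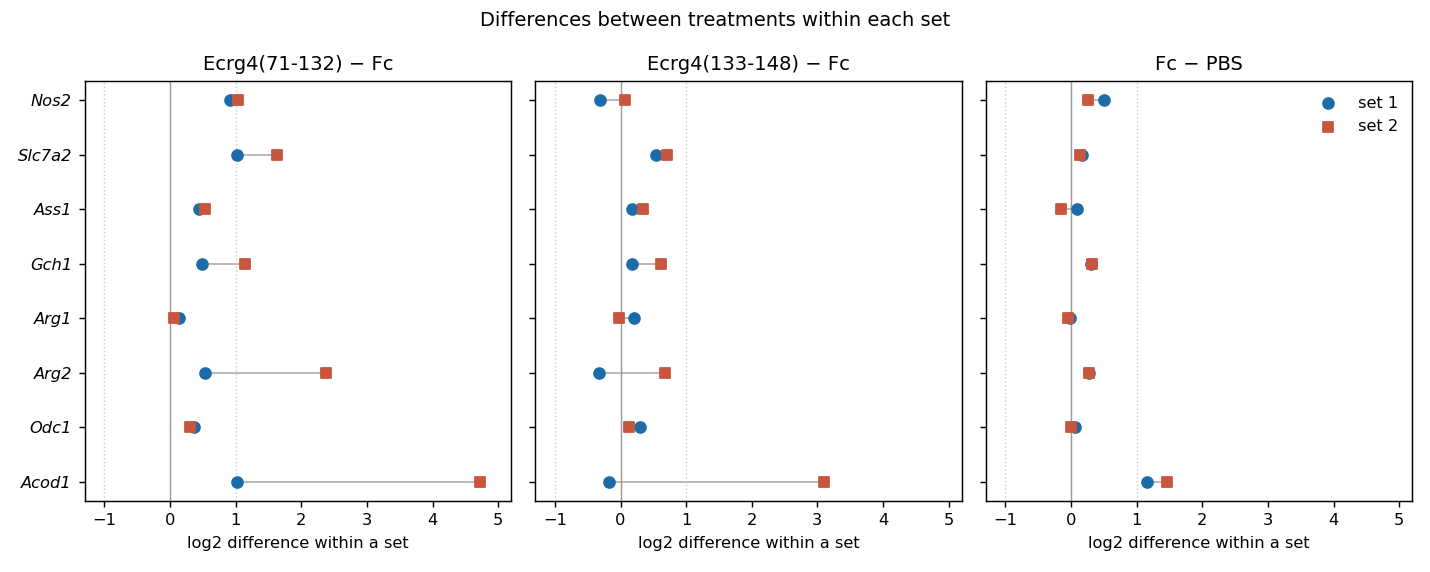
Log2 difference between treatments within each set (horizontal axis) for the 8 genes, with 1 point per set (blue circles set 1, red squares set 2), a grey line joining them, a solid line at 0 and dotted lines at 2-fold. With Ecrg4(71-132) against Fc every point lies above 0, and Acod1 (1.02 and 4.72) and Arg2 (0.54 and 2.37) have the widest gaps between the sets. Against PBS the Fc points of Slc7a2, Gch1, Arg2, Arg1 and Odc1 lie close together, and those of Nos2, Ass1 and Acod1 lie farther apart.

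Ecrg4(71-132) was set against Fc to measure the fragment beyond its carrier. All 8 members were higher in both sets, against 28.5% of all genes. Under quantile scaling 7 were, since Arg1 changed sign in 1 set. These counts are no test, since the members were chosen with earlier results of these data known. Over 2-fold higher in both sets were 2 members, Acod1 and Slc7a2, against 0.465% of all genes, and none was over 2-fold lower, against 0.267%. Both values of set 1 lay just past that mark (1.02 each), and Acod1 fell short of it under normexp background correction and under quantile scaling, which left 1 member. Nos2 (0.91 and 1.04) lay just short of it, and under median scaling it lay just past it (1.03 and 1.04), which made 3 members. The median difference of the members was 0.90, or 0.51 in set 1 and 1.09 in set 2, beside a median of -0.02 over all genes. None passed the test, as for 0% of all genes. At an unadjusted p under 0.05 in limma there were 644 genes, with Nos2 and Gch1 among them. With the set as a block 3559 genes had an unadjusted p under 0.05 and 6 members did, all but Acod1 and Arg1. Their adjusted p ran from 0.177 for Nos2 and Slc7a2 to 0.250 for Arg2. In the block fit without the set 1 array of Ecrg4(71-132), 482 genes passed and Slc7a2 was among them (1.59 higher, limma adjusted p = 0.0487, against 0.0487 to 1 over all members and alternatives). That fit has 1 array of Ecrg4(71-132), which is assumed to vary like the other treatments, whose arrays alone supply the spread. Microglial marker sums (8 of 8 genes measured) were 9.14 and 8.92 with Ecrg4(71-132), against 9.23 and 9.17 with Fc. Cx3cr1 in set 2 was higher with Ecrg4(71-132) than with Fc, as given above. The part of these markers in the differences was not tested.

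Ecrg4(133-148) was set against Fc in the same way. Slc7a2 differed by 0.63 (SE 1.53), with 0.54 in set 1 and 0.72 in set 2, and Gch1 by 0.40 (SE 0.21), with 0.17 and 0.62. Odc1 (0.29 and 0.13) and Ass1 (0.17 and 0.34) were also higher in both sets, which made 4 of the 8 members, against 28.5% of all genes. Nos2 was 0.31 below Fc in set 1 and 0.07 above it in set 2, with a mean difference of -0.12 (95% interval -0.93 to 0.70). Acod1 was 0.18 below Fc in set 1 and 3.10 above it in set 2, and Arg2 was likewise below Fc in set 1 and 0.68 above it in set 2. No member was over 2-fold higher in both sets, against 0.0523% of all genes, or over 2-fold lower, against 0.0262%. None passed the test (limma, adjusted p = 1 for each), as for 0% of all genes, and 88 genes, no member among them, had an unadjusted p under 0.05. With the set as a block 1006 genes did, with Slc7a2, Ass1 and Odc1 among them (adjusted p = 0.836 each).

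The fragments were compared directly at the same dose and time, as Ecrg4(71-132) minus Ecrg4(133-148), over 8 members. Nos2 was 1.09 higher with Ecrg4(71-132) (SE 0.32, 95% interval 0.28 to 1.91), by 1.22 in set 1 and 0.97 in set 2. Its interval in the block fit was 0.81 to 1.38, and neither fit passed the test (limma adjusted p = 1, and 0.714 with the block). By unadjusted p Nos2 ranked at place 25 of the 19120 genes, and at place 2 with the block. Nos2 was chosen with earlier results of these data known, so its rank is a description. Arg2 was 1.28 higher (95% interval -0.58 to 3.14), by 0.87 and 1.69, and Acod1 1.41 higher (-3.81 to 6.64), by 1.20 and 1.63. Slc7a2 was 0.69 higher, by 0.47 and 0.91, with an interval of -3.17 to 4.55, or 0.24 to 1.14 with the block. Gch1 was 0.42 higher (-0.11 to 0.96), by 0.31 and 0.53, and Ass1 0.23 higher (-2.70 to 3.16), by 0.27 and 0.19. The difference for Odc1 was 0.12 (-0.72 to 0.96, or -0.085 to 0.33 with the block). For Arg1 it was 0.01 (-1.03 to 1.04, or -0.22 to 0.24 with the block). The wider intervals hold the gap between the sets, and none of the intervals shows that the fragments act alike on these genes. In all, 7 members were higher in both sets, against 23.7% of all genes. Acod1 alone was over 2-fold higher in both sets, against 0.413%, and none was over 2-fold lower, against 0.136%. Of all genes 0% passed, and 141 had an unadjusted p under 0.05, with Nos2 among them. With the block 1210 did, with Nos2, Slc7a2 and Ass1 among them.

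**Figure D3:**
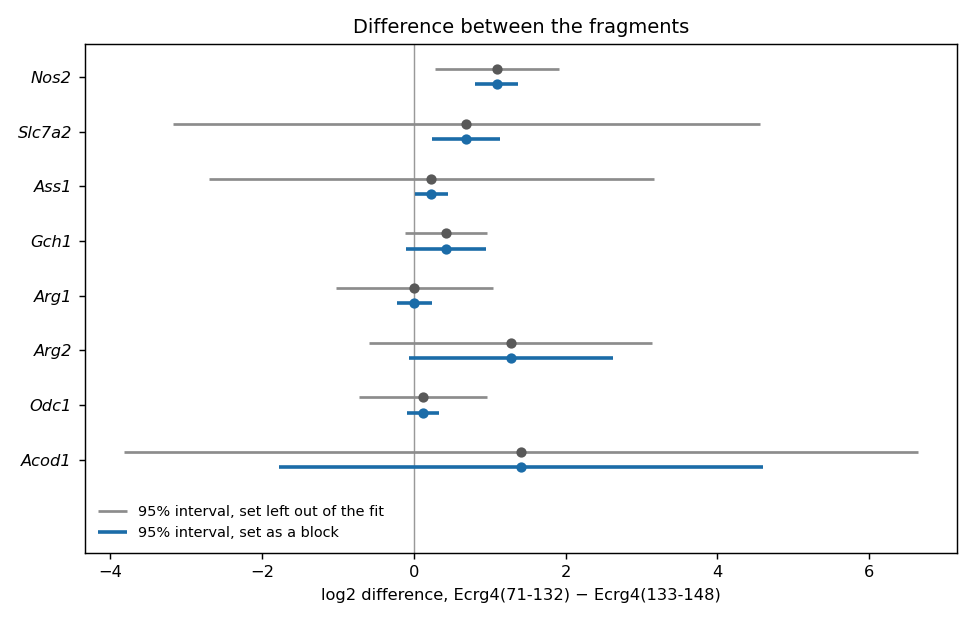
Log2 difference Ecrg4(71-132) minus Ecrg4(133-148) (horizontal axis) for the 8 genes, as the mean over both sets (points) with unadjusted 95% intervals from the fit without the set (grey) and with the set as a block (blue), n = 2 arrays per fragment. Both intervals of Nos2 lie above 0 (0.28 to 1.91 and 0.81 to 1.38), those of Slc7a2 and Ass1 do so with the block alone, and those of the other 5 genes include 0.

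The carrier itself was measured as Fc against PBS. Acod1 was 1.31 above PBS with Fc (SE 2.08), with 1.16 in set 1 and 1.46 in set 2, and it was the 1 member over 2-fold higher in both sets, against 0.0418% of all genes. Nos2 was 0.38 higher (SE 0.32), by 0.50 and 0.26. Gch1 was 0.32 higher (SE 0.21), by 0.31 and 0.33, and Arg2 0.27 higher (SE 0.74), by 0.27 and 0.27. In both sets 5 members were higher by any amount, against 39.6% of all genes, so this count is no result about the members. No member was over 2-fold lower, against 0.12%. No gene passed the test (0%, limma, adjusted p = 1 for each member), and 51 genes, no member among them, had an unadjusted p under 0.05. With the set as a block 355 genes did, with Nos2 among them. The within-set values for Arg1, Ass1 and Odc1 lay between -0.15 and 0.09.

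Against PBS all differences of Ecrg4(71-132) hold the carrier as well. These comparisons share arrays with those above, so they add no independent count. Acod1 was 4.18 higher with Ecrg4(71-132) than with PBS (SE 2.08), by 2.18 and 6.18, Slc7a2 1.47 (SE 1.53), by 1.18 and 1.76, and Nos2 1.36 (SE 0.32), by 1.41 and 1.30. These 3 were over 2-fold higher in both sets, against 0.722% of all genes, and none was over 2-fold lower, against 0.445%. Under normexp background correction 2 of them were, since Nos2 stood at 1.11 and 0.90, and under median scaling 5 members were, with Arg2 and Gch1 added. Gch1 was 1.13 higher (SE 0.21), by 0.79 and 1.47, with the smallest adjusted p of the members beside Nos2 (limma adjusted p = 0.926 for both). All 8 were higher in both sets by any amount, against 34.3% of all genes. No gene passed (0%), with 933 at an unadjusted p under 0.05, Nos2 and Gch1 among them. With the block 4531 genes were under it, with every member but Arg1 among them. In the block fit without the set 1 array of Ecrg4(71-132), 1078 genes passed, with Slc7a2 (1.74 higher, limma adjusted p = 0.0416) and Nos2 (1.32 higher, limma adjusted p = 0.0453) among them, against a range of 0.0416 to 1 over all members and alternatives. Here too the lone Ecrg4(71-132) array adds nothing to the spread.

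With Ecrg4(133-148) against PBS, Acod1 was 2.77 above PBS (SE 2.08), with 0.99 in set 1 and 4.55 in set 2. Slc7a2 was 0.78 higher (0.70 and 0.85) and Gch1 0.71 higher (0.48 and 0.94). By any amount 6 members were higher in both sets, against 36.3% of all genes. No member was over 2-fold higher in both sets, against 0.131%, or over 2-fold lower, against 0.214%, although Acod1 in set 1 lay just inside 2-fold. No gene passed (0%, limma, adjusted p = 1 for each member), with 186 at an unadjusted p under 0.05, Gch1 among them. With the block 1749 genes were under it, with Slc7a2, Gch1, Ass1 and Odc1 among them.

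The sets themselves differed in these genes, and the differences are given as a description, since each set may be 1 culture. Slc7a2 was 2.50 higher in set 2 than in set 1 on average over the treatments, by 2.30 to 2.90. Ass1 was 1.90 higher in set 2, by 1.78 to 2.02. These genes of arginine uptake and arginine recycling thus differed more between the sets than between any treatments of a set. Arg1 (mean -0.64, from -0.80 to -0.54), Odc1 (mean -0.51, from -0.63 to -0.41) and Nos2 (mean -0.48, from -0.67 to -0.29) were lower in set 2 under every treatment. Over all genes the median set difference was 0.11, 9.07% of genes were over 1 and 7.30% under -1.

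For Acod1 and Arg2 the set difference itself depended on the treatment. Acod1 in set 2 was lower than in set 1 by 4.83 with PBS and 4.54 with Fc, but by 1.26 with Ecrg4(133-148) and 0.83 with Ecrg4(71-132). Arg2 differed between set 2 and set 1 by -1.63 with PBS and -1.63 with Fc, by -0.62 with Ecrg4(133-148) and by 0.20 with Ecrg4(71-132). In both genes the sets were thus closest together with Ecrg4(71-132) and farthest apart in the controls. With 1 array per treatment and set this was not tested. The fibroblast, Gfap, Slc1a3, Cx3cr1 and Itgax values given above separate the sets too, while the astrocyte sum, in set 2 nearly Aldh1l1 alone, does not. The part of these markers in the set differences of Acod1 and Arg2 was not tested.

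**Figure D4:**
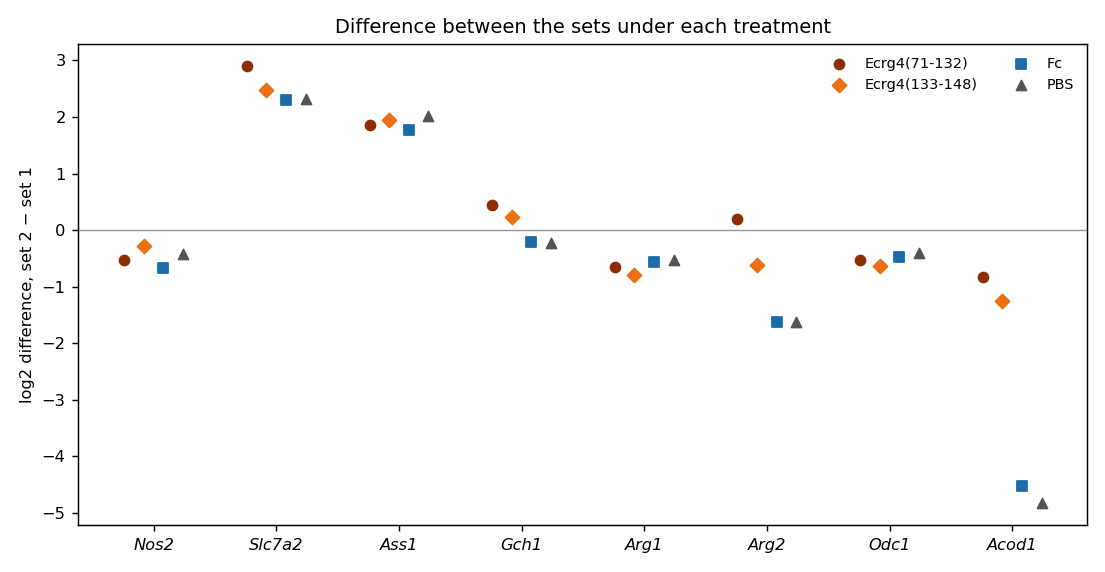
Log2 difference set 2 minus set 1 (vertical axis) for each gene under the 4 treatments, 1 point per treatment (2 arrays each). Points of Slc7a2 (2.30 to 2.90) and Ass1 (1.78 to 2.02) lie together above 0, while those of Acod1 spread from -4.83 with PBS to -0.83 with Ecrg4(71-132).

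Reference promoter windows were at hand for 4 of the 8 members (Acod1, Ass1, Gch1 and Odc1). They are RefSeq sequences of GRCm38.p6, from 250 bases before to 50 after the annotated start, and 7 motifs were searched on both strands: the kB consensus, AP-1 (TGANTCA), the cyclic AMP element (TGACGTCA), the interferon-stimulated element, the gamma-activated site (TTCNNNGAA), the E-box (CACGTG) and the TATA box (TATAAA). Acod1, the gene with the widest range, held a TATA box that began 28 bases before the start. Gch1 held the sole kB match among the 4 windows, in the 10 bases before the start and on both strands, and a reverse TATA box match that began 188 bases before it. Ass1 held an E-box, and Odc1 held none of the 7. Of 32544 promoter windows with distinct sequence, 8.5% held the kB consensus, 7.8% AP-1, 1.8% the cyclic AMP element, 3.4% the interferon-stimulated element, 8.3% the gamma-activated site, 7.2% the E-box and 13.6% the TATA box. The 250 bases before the start of Acod1 (chr14:103046762-103047011, plus strand) and of Gch1 (chr14:47189414-47189663, minus strand) follow 5′ to 3′, with the matches in capitals.
Acod1: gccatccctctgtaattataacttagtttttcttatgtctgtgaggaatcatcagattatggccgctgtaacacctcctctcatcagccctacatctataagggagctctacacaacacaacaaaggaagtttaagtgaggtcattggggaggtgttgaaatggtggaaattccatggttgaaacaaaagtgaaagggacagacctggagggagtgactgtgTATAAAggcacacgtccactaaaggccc
Gch1: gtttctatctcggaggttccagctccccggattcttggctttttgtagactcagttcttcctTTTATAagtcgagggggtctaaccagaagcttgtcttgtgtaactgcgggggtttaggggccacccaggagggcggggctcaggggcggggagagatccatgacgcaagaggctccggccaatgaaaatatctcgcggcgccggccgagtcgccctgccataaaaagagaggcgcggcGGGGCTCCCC
A match is a description of these letters and not evidence of a factor bound there.

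Genes with the most similar pattern were sought for the 3 members that ranged over more than 1 on the log2 scale in both sets, over 11564 named genes that every array measured above its background. The measure was the root mean square difference over the 8 arrays after each gene was centred within each set. Acod1 was nearest to Tnf (0.30), Cxcl3 (0.35) and Cxcl2 (0.35), which encode an inflammatory cytokine and a pair of neutrophil-attracting chemokines. Tnf stood at 6.07 in set 1 and 7.33 in set 2 with Ecrg4(71-132), at 4.69 and 5.62 with Ecrg4(133-148), at 4.32 and 3.19 with Fc, and at 3.32 and 1.74 with PBS. Nos2 was nearest to Cfb (0.15), the complement factor B gene, AW112010 (0.18) and Plet1 (0.18). Cfb too had Fc above Ecrg4(133-148) in set 1 (1.12 against 0.41) and below it in set 2 (3.68 against 4.14). It was picked for such likeness. Unlike Nos2, whose PBS level was lowest in both sets, Cfb had PBS above Ecrg4(133-148) in set 1 (0.46 against 0.41). In set 2 its PBS level lay above Fc (3.73 against 3.68). Slc7a2 was nearest to Amotl1 (0.11), Mtmr7 (0.12) and Kcnn4 (0.13), a calcium-activated potassium channel gene.

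Other genes of the same pathways differed little. Of 52 listed genes of arginine supply, tetrahydrobiopterin, polyamines, and itaconate with its neighbours, 46 were measured, and 0 passed the test in either direction in any of the 6 comparisons. Between Ecrg4(71-132) and Fc their median difference was -0.01, beside -0.02 over all genes, with 13 higher and 16 lower in both sets. In the tetrahydrobiopterin group beside Gch1, 0 of 6 measured genes were higher and 3 lower in both sets, with a median of -0.10. In the polyamine group beside Odc1, 5 of 11 were higher and 3 lower, with a median of 0.02. By size of a difference with 1 sign in both sets, Nfkbiz came first, which encodes an inducible nuclear IkB protein. It was at 1.88 (SE 0.57, by 1.39 and 2.36), and it alone was over 2-fold higher in both sets. Slc3a2, the shared heavy chain of several amino acid transporters, was at 0.60 (SE 0.23, with 0.56 and 0.64). Neither gene passed the test (limma adjusted p = 1 for both).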

How the data were processed

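Each of 4 treatments had 2 samples, hybridised to Agilent arrays in 1 colour. Per the submitters' processing notes, Feature Extraction 11.0.1.1 was used, and the scanner files deposited give every spot a processed intensity, linear and with background subtracted, beside its flags. The deposited table holds log2 values that follow log2 of these intensities minus 1 constant per array, and no source used here says how the authors chose that constant. Of its scale, centring and direction, only this choice stays unknown, and its column medians ran from -4.48 to -4.21.

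Log2 intensity minus the array's 75th percentile over non-control spots was computed, outlying spots were left out, and spots of a probe were averaged. No spot was saturated. Of 55681 probes, 28026 were named through RefSeq accessions of GRCm38.p6. A probe was kept where both arrays of some treatment measured it well above background (25250 probes), giving 19120 genes by the brightest probe, 12597 with a symbol. The model (limma 3.58.1, R 4.3.3) used all 8 arrays and 1 mean per treatment (4 residual degrees of freedom) and p-values were adjusted over all genes within a comparison. The fit was run on arrays simulated with normal noise, a constant set shift per gene and planted changes. Such a run checks the calculation and cannot show whether real arrays behave so. Only 2 arrays per treatment limit the precision.

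The set numbers come from the sample titles. They were taken to pair the samples, since set 2 minus set 1 differences correlated at 0.783 to 0.862 between treatments, and a fit with the set as a block is given as an alternative. All 8 members are named. Of the other pathway genes the 3 with the largest difference of 1 sign in both sets were chosen, of which 1 is not reported here, and so were the 3 genes nearest in pattern to each member whose range exceeded 1 (log2) in both sets. The members, lists and motifs were chosen with earlier results of these data known. Alternatives covered background correction, scaling, filters, probe rules, the deposited table, the samples in the fit, moderation and each array left out.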

Additional observations from a re-analysis of the deposited data

How the results depend on the processing

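No member passed the test under any of the 10 alternatives that keep every array. Of the log2 differences of single members, 471 kept their sign under them and 9 did not. With normexp background correction Arg1 turned to -0.017 for Ecrg4(71-132) minus Ecrg4(133-148) and to 0.022 for Fc minus PBS. With quantile scaling it turned to -0.0066 for Ecrg4(71-132) minus Fc, -0.059 for Ecrg4(71-132) minus Ecrg4(133-148), -0.10 for Ecrg4(71-132) minus PBS and -0.044 for Ecrg4(133-148) minus PBS, and Odc1 to -0.030 for Fc minus PBS. With median scaling Arg1 turned to 0.056 and Ass1 to 0.052 for Fc minus PBS. Median scaling moved the median of all genes to 0.12 for Fc, 0.16 for Ecrg4(71-132) and 0.15 for Ecrg4(133-148), each minus PBS. The members over 2-fold higher in both sets numbered 1 for Ecrg4(71-132) minus Fc under normexp correction and under quantile scaling and 3 under median scaling. For Ecrg4(71-132) minus PBS they numbered 2 under normexp correction. Under median scaling they numbered 5 for Ecrg4(71-132) minus PBS and 1 for Ecrg4(133-148) minus PBS, and 1 for Ecrg4(133-148) minus PBS with the deposited table. That count needs both sets and has no value with an array left out. With the replicate block 0 genes passed in each comparison, and the smallest member p was that of Nos2 for Ecrg4(71-132) minus PBS (adjusted p = 0.104). With an array left out the means no longer cover the same sets, so each was also left out with the block, an alternative chosen after seeing the data. Without the first Ecrg4(71-132) array the block fit passed 482 genes against Fc, with Slc7a2 among them (1.59, adjusted p = 0.0487), and 1078 against PBS, with Slc7a2 (1.74, adjusted p = 0.0416) and Nos2 (1.32, adjusted p = 0.0453) among them. Without the first Fc array 1 gene passed against Fc, and without the first PBS array 3 passed against PBS, so the counts ran from 0 to 482 and from 0 to 1078. The cause was not tested. An Ecrg4(71-132) arm of 1 array is assumed in these fits to vary like the other treatments. With 1 array left out and no block, the log2 difference of the members listed next changed sign. With the block the sign changed only for Nos2, Arg1 and Arg2 in Ecrg4(133-148) minus Fc, Arg1 in Ecrg4(71-132) minus Ecrg4(133-148), Acod1, Arg1, Arg2, Ass1 and Odc1 in Fc minus PBS, Arg1 in Ecrg4(71-132) minus PBS, and Arg1 and Arg2 in Ecrg4(133-148) minus PBS. Slc7a2 and Ass1 for Ecrg4(71-132) minus Fc then ran from 1.05 to 1.59 and from 0.40 to 0.57. Without the block, for Ecrg4(71-132) minus Fc it ran from -0.23 to 0.42 for Arg1, -0.44 to 1.42 for Ass1 and -0.13 to 2.77 for Slc7a2. For Ecrg4(133-148) minus Fc it ran from -0.45 to 0.22 for Nos2, -0.81 to 3.73 for Acod1, -0.31 to 0.49 for Arg1, -0.64 to 0.996 for Arg2, -0.71 to 1.23 for Ass1, -0.61 to 1.86 for Slc7a2 and -0.11 to 0.53 for Odc1. For Ecrg4(71-132) minus Ecrg4(133-148) it ran from -0.39 to 0.41 for Arg1, -0.74 to 1.20 for Ass1, -0.76 to 2.14 for Slc7a2 and -0.19 to 0.44 for Odc1. For Fc minus PBS it ran from -1.11 to 3.72 for Acod1, -0.31 to 0.26 for Arg1, -0.55 to 1.09 for Arg2, -1.04 to 0.98 for Ass1, -1.01 to 1.31 for Slc7a2 and -0.21 to 0.26 for Odc1. For Ecrg4(71-132) minus PBS it ran from -0.26 to 0.39 for Arg1 and -0.55 to 1.46 for Ass1. For Ecrg4(133-148) minus PBS it ran from -0.34 to 0.46 for Arg1, -0.37 to 1.26 for Arg2, -0.78 to 1.23 for Ass1, -0.46 to 2.01 for Slc7a2 and -0.085 to 0.55 for Odc1.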
